A study of Mus musculus with 6 samples.

Results

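The replication-dependent histone genes supply the histones that package newly copied DNA, and their RNAs were compared between mouse embryonic stem cells without Mettl5 and wild-type cells. Members were the genes of the deposited table that GENCODE M21 names as protein-coding with a symbol of the Hist1h, Hist2h, Hist3h or Hist4h series. The annotation holds 67 such genes, and 66 of them were among the 24191 genes of the table. They comprise 6 H1, 18 H2A, 18 H2B, 12 H3 and 12 H4 genes, of which 53 lie in the Hist1 cluster on chromosome 13, 10 in Hist2 on chromosome 3, 2 in Hist3 on chromosome 11 and 1, Hist4h4, on chromosome 6. Hist1h4m was not analysed here.

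The knockout cells were J1 embryonic stem cells of genotype Mettl5 -/-, called Mettl5 KO, and their controls were wild-type (WT) J1 cells, with 3 libraries each. METTL5 is an enzyme that methylates an adenosine of 18S ribosomal RNA at its N6 position. Both groups grew for 7 days with serum and the cytokine LIF, which holds mouse embryonic stem cells undifferentiated, and polyA RNA was sequenced from stranded libraries. The labels do not say how Mettl5 was disrupted, whether the knockout is 1 clone, or whether replicates were separate cultures, and p-values therefore reflect only the differences among these libraries, which may be technical.

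Nucleosomes wrap DNA around a core of H2A, H2B, H3 and H4, and H1 is the linker histone that binds where DNA enters and leaves the core. Histone cluster genes are transcribed mainly in S phase, and their mature mRNAs end in a conserved stem-loop in place of a polyA tail. The stem-loop is bound by SLBP, and the U7 small nuclear ribonucleoprotein guides the cut just after it. A fraction of their transcripts is instead cleaved downstream and polyadenylated, which is known in differentiating and cultured cells. A library made from RNA selected for its tail therefore samples tailed histone transcripts and whatever tail-less RNA is carried along, and the share of each cannot be told apart here.

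The stem-loop is shown because it is the feature that separates these mRNAs from other mRNAs. Within 100 bases after the stop codon, a pattern of 16 letters on the sense strand (GG, any 3 letters, TT, any letter, T, any letter, A, any 3 letters, CC) was found in the annotated transcripts of 45 of the 66 members, 21 to 58 bases after the stop. The same window held a match in 45 of 20914 other protein-coding genes (0.215%). For 13 members the annotation ends at the stop codon and the window is empty. Below, written as DNA in sense orientation from the GENCODE M21 transcripts, the stem is in capitals and the loop in lower case. Hist1h4a and Hist2h2ac each have a form of their own, which is not printed.
Common form, 26 members of the H1, H2A, H2B and H3 classes, among them Hist1h2ap, Hist1h1c and Hist1h1e: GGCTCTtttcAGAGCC
Loop ending in A, 6 members, among them Hist1h1t, Hist1h3e and Hist1h2bk: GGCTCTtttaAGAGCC
H4 form, 6 members, among them Hist1h4n, Hist1h4h and Hist4h4: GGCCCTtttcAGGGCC
H4 form of Hist1h4j and Hist1h4b: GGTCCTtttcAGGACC
H4 form of Hist1h4i and Hist2h4: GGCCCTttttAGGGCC
H3 form of Hist1h3g: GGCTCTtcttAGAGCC
In each of these forms the right arm is the reverse complement of the left arm, and the H4 genes differ from the other classes in the stem itself. The Hist1h1c copy lies at chr13:23739512-23739527 on the plus strand and the Hist4h4 copy at chr6:136803998-136804013 on the minus strand (GRCm38, the assembly also called mm10).

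In 23 members the annotated transcript runs over 100 bases past the stem-loop, as in Hist1h1c, Hist3h2a and Hist4h4, and 14 members have AATAAA, the usual polyadenylation signal, in their last 50 annotated bases. Hist1h2bc, Hist1h2bq and Hist1h2br are annotated with more than 1 exon and no stem-loop. Proteins differ far less than the genes do. The 12 H4 genes encode 1 and the same protein, and the 12 H3 genes encode 2 proteins that differ at 1 residue, known as H3.1 and H3.2. The 18 H2A and 18 H2B genes encode 9 and 11 different proteins, and each of the 6 H1 genes has its own.

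This likeness limits what a single gene's value can carry. Reads were assigned with kallisto, and of all 31-base words in a member's annotated transcripts the median share found in no other gene was 40.4%. The share was 96.2% for H1, 58.2% for H4, 42.6% for H2B, 37.0% for H3 and 22.9% for H2A genes (medians). It was under 25% in 23 members and 0 in 5, namely Hist2h2aa1, Hist2h2aa2, Hist2h2bb, Hist2h3b and Hist2h3c1. How reads were split within the H2A, H2B and H3 classes is thus uncertain, as it is for H4 genes such as Hist1h4k (13.8%) and Hist1h4n (12.5%). A sum of read counts over a class does not depend on the split within it. For the scaled reads, a deposited value whose column is named per base, this was not tested. The sums of TPM given below do depend on the split where members differ in length. Among H2B genes the annotated transcript is 381 bases in Hist2h2bb and 2620 in Hist2h2be. Both kinds of sum depend on splits with genes outside the class: the gene sharing the most words was Gm20628 for Hist2h2bb, Gm20633 for Hist2h2aa1, Gm20634 for Hist2h3c1 and the H2B gene Hist1h2be for Hist1h1e.

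Levels are given on the TPM scale, a deposited per-length value that the authors rescaled between libraries. Comparing it between genes assumes that annotated lengths match the RNA sequenced, which was not tested. In WT cells Hist1h1d averaged 3.95 on this scale and Hist1h1b 36.4, but 1648 and 1233 in scaled reads. Mettl5 itself was at 3.65, 3.58 and 3.32 in the Mettl5 KO libraries, against 50.3, 48.6 and 48.7 in the WT libraries. Estimated depth was 40440000 to 59640000 fragments in Mettl5 KO and 38540000 to 52750000 fragments in WT libraries. The stem cell marker Pou5f1 was at 1330 ± 41.7 in Mettl5 KO and 1498 ± 54.2 in WT cells (SD, n = 3), and all 10 markers of embryonic stem cells averaged at least 1 in both groups, with 7 lower and 2 higher in Mettl5 KO cells. Zfp42, a marker of naive cells, had a log2 fold change of -1.24 on the scale given below for the tests. Of 12 fibroblast markers, which feeder cells would carry, 11 were higher in Mettl5 KO cells and Thy1 was lower. Their summed level was 48.7 to 50.1 in Mettl5 KO and 15.8 to 18.5 in WT libraries, none was listed at 0 throughout a group, and Col1a1, a collagen gene, was at 17.7 ± 0.444 in Mettl5 KO and 0.694 ± 0.316 in WT cells (SD, n = 3). The part of such cells in the histone results was not tested.

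RNA of the histone clusters was lower in Mettl5 KO cells in the sum of each class, and 61 of 66 genes were lower, against 28.9% of all tested genes. Summed over the 66 members, the level was 1509, 1538 and 1486 in the Mettl5 KO libraries, against 2550, 3304 and 2702 in the WT libraries. Histone RNA made up 0.146% to 0.150% of the TPM total in Mettl5 KO and 0.263% to 0.338% in WT libraries. The Mettl5 KO mean was 53.0% of the WT mean, and no Mettl5 KO library reached the lowest WT library. In bulk polyA RNA, fewer cells in S phase, less histone RNA per cell and a different share of tailed or carried-over histone RNA cannot be told apart.

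Tests used limma on log2(scaled reads + 1), the second deposited value, with p-values adjusted by Benjamini-Hochberg over 24183 genes and a threshold of 0.05. Log2 fold changes are Mettl5 KO against WT on that scale, with their standard error (SE). They understate the change of low genes. The 2 columns are scaled differently, so a fold change need not equal the ratio of the TPM levels beside it. At this threshold no member was higher, against 33.6% of all tested genes. Counted the other way, 62 members had every Mettl5 KO library below every WT library, which held for 32.1% of all tested genes. Of the members, 30 were lower with a log2 fold change of -1 or less, against 9.93% of all tested genes. The median log2 fold change was -0.995 over the members and 0.00 over all tested genes. Rescaling to equal totals gave a median of -0.15 over all genes and -1.15 over the members, with 63 members lower and none higher. In a limma test against a 1.5-fold change, 43 members were lower, against 9.01% of all tested genes.

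Without WT replicate 2, 60 members were lower and 1, Hist1h2ao, was higher. That library had the highest value of the 3 WT libraries in 56 of 66 members, against 33.7% of genes with a mean level of at least 1. The gap was widest in H2A, whose sum was 1.47 times as high in the highest as in the lowest WT library. The same ratio was 1.28 in H4, 1.22 in H3, 1.08 in H2B and 1.02 in H1. Among Mettl5 KO libraries it was between 1.04 and 1.10 in all 5 classes. Without WT replicate 2, the Mettl5 KO mean was 57.5% of the WT mean over all members, 44.0% in H1, 68.4% in H2A, 53.5% in H2B, 47.8% in H3 and 47.2% in H4.

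**Figure D1:**
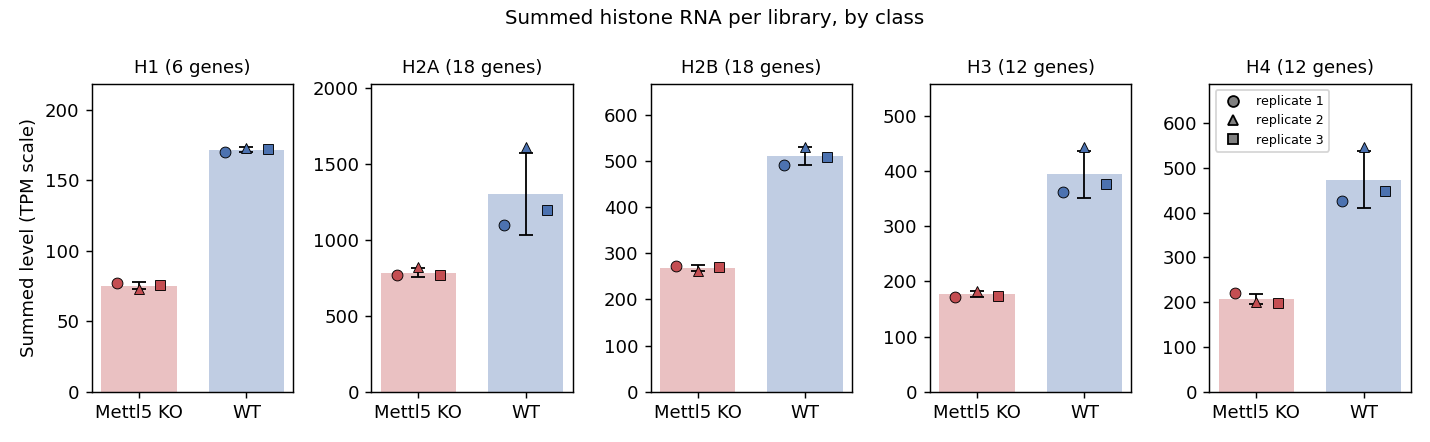
Summed level on the TPM scale (y axis, from 0) of the genes of each histone class in Mettl5 KO (red) and WT (blue) libraries. Bars are means, error bars are SD (n = 3) and points are libraries; in each panel the Mettl5 KO points lie below the WT points, and WT replicate 2 is the highest WT point.

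H1 genes, which encode the linker histones and are the best resolved class by sequence, were all lower in Mettl5 KO cells. Their sum was 77.2, 72.8 and 76.03 in the Mettl5 KO libraries, against 170.1, 173 and 172.5 in the WT libraries, a Mettl5 KO mean of 43.8% of the WT mean. Hist1h1a (chr13:23763666-23764406) was the highest H1 gene on the TPM scale. It was at 36.4, 33.4 and 35.8 in the Mettl5 KO libraries, against 90.1, 87.4 and 89.8 in the WT libraries. Its log2 fold change was -1.26 (SE 0.04, adjusted limma p 7.96e-09). The WT libraries lay close together and far above the Mettl5 KO libraries, with no overlap. Hist1h1b (chr13:21779883-21780625) was at 15.3, 14.9 and 15.3 in the Mettl5 KO libraries, against 35.99, 36.7 and 36.6 in the WT libraries, a log2 fold change of -1.19 (SE 0.0402, adjusted limma p 1.17e-08).

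Hist1h1e and Hist1h1d, both encoding widely expressed linker histones, were close in the size of their change. Hist1h1e was at 12.5, 12.04 and 12.7 in the Mettl5 KO libraries, against 22.9, 26.2 and 25.1 in the WT libraries (log2 fold change -0.94, adjusted limma p 2.94e-07). Hist1h1d, whose annotated transcript is the longest of all members, was at 1.96, 1.87 and 1.91 in the Mettl5 KO libraries, against 3.78, 4.195 and 3.87 in the WT libraries (log2 fold change -0.996). The smallest H1 change was that of Hist1h1c, at 10.6, 10.3 and 10.03 in the Mettl5 KO libraries, against 14.8, 16.4 and 14.5 in the WT libraries. Its log2 fold change was -0.50 (SE 0.053, adjusted limma p 2.52e-05), and its Mettl5 KO mean was 67.7% of the WT mean, the highest such share in the class. The transcript of Hist1h1c is annotated 840 bases past its stem-loop, ending with an AATAAA.

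The largest fall in H1 was that of Hist1h1t, which encodes the linker histone of male germ cells in meiosis. It was low in WT cells and lower still without Mettl5, at 0.391, 0.305 and 0.27 in the Mettl5 KO libraries, against 2.48, 2.403 and 2.59 in the WT libraries. The log2 fold change was -2.82 (SE 0.183, adjusted limma p 8.98e-07), and each of its 31-base words is its own. Hist1h2ba and Hist1h2aa, which encode the testis H2B and H2A and sit head to head with 306 bases between their starts, fell too. Hist1h2ba was at 0.305, 0.269 and 0.139 in the Mettl5 KO libraries, against 3.26, 3.44 and 3.33 in the WT libraries, with a log2 fold change of -3.41 (SE 0.292, adjusted limma p 6.07e-06). Hist1h2aa was at 1.22, 1.24 and 1.42 in the Mettl5 KO libraries, against 5.55, 6.73 and 5.69 in the WT libraries, with a log2 fold change of -2.04 (SE 0.17, adjusted limma p 4.96e-06). All Mettl5 KO values of these 3 genes lay below all WT values, and together they summed to 15.7% of the WT mean in Mettl5 KO cells. They make up little of the total: without them, the other 63 members stood at 53.1% of the WT mean.

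H2A genes held the largest share of histone RNA, and their sum changed the least of the 5 classes; differences between classes were not tested. The sum was 767, 820.3 and 766 in the Mettl5 KO libraries, against 1099, 1610 and 1196 in the WT libraries, a Mettl5 KO mean of 60.3% of the WT mean. Of 18 genes, 15 were lower and 3 did not pass the threshold (median log2 fold change -0.77). Hist1h2ap alone made up 47.2% of the class in Mettl5 KO and 42.5% in WT cells, at 337.5, 399 and 373 in the Mettl5 KO libraries, against 465, 669.9 and 523 in the WT libraries. Its log2 fold change was -0.47 (SE 0.117, adjusted limma p 0.00626). The lowest WT library was above the highest Mettl5 KO library by less than WT replicate 2 was above WT replicate 1. Hist1h2af was at 166, 166 and 157.5 in the Mettl5 KO libraries, against 209, 305 and 233 in the WT libraries, with a log2 fold change of -0.48 (SE 0.111, adjusted limma p 0.00413). Hist1h2ai was at 112, 119.6 and 93.4 in the Mettl5 KO libraries, against 162, 265 and 188 in the WT libraries, with a log2 fold change of -0.79 (SE 0.158, adjusted limma p 0.00181). These 3 genes have 5.69% to 7.99% of 31-base words of their own, so their split is uncertain.

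In the Hist2 cluster, Hist2h2aa2 and Hist2h2aa1 encode H2A from a duplicated block. Hist2h2aa2 was at 34.03, 37.5 and 33.4 in the Mettl5 KO libraries, against 60.9, 92.8 and 64.5 in the WT libraries (log2 fold change -0.94, adjusted limma p 0.000214). Hist2h2aa1 was at 3.099, 1.55 and 1.48 in the Mettl5 KO libraries, against 9.17, 11.1 and 9.16 in the WT libraries (log2 fold change -2.24, adjusted limma p 3.95e-05). Neither has a 31-base word of its own, so their values cannot be told apart, and Hist2h2aa1 also shares words with Gm20633 (0.188 in Mettl5 KO and 0.202 in WT cells, means of 3). Among H2A genes with more sequence of their own, Hist1h2ae had a log2 fold change of -1.38 and Hist1h2ac one of -0.53 (52.1% and 83.1% of words their own).

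The 3 H2A genes without a call were Hist1h2an, Hist2h2ab and Hist1h2ao. Hist1h2ao was at 25.1, 21.6 and 25.7 in the Mettl5 KO libraries, against 19.8, 32.3 and 21.1 in the WT libraries. The groups overlapped, and its log2 fold change of 0.11 (adjusted limma p 0.571) became 0.33 (adjusted limma p 0.0132) without WT replicate 2. Hist1h2an was at 3.61, 5.17 and 4.797 in the Mettl5 KO libraries, against 6.304, 11.6 and 4.898 in the WT libraries (log2 fold change -0.55, adjusted limma p 0.119). Without WT replicate 3, Hist1h2an was called lower (-0.797, adjusted limma p 0.0307). Hist2h2ab was at 1.36, 1.26 and 0.926 in the Mettl5 KO libraries, against 1.14, 1.71 and 1.85 in the WT libraries (log2 fold change -0.28, adjusted limma p 0.372). In all 3 the Mettl5 KO and WT ranges overlapped. Only 6.22% of the 31-base words of Hist1h2ao and 11.02% of those of Hist1h2an are their own.

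H2B genes summed to 272, 261 and 271 in the Mettl5 KO libraries, against 492, 530.5 and 509.5 in the WT libraries, a Mettl5 KO mean of 52.5% of the WT mean. The test called 16 of 18 genes lower, and the class median was -0.93 on the log2 scale. Hist2h2bb was the highest H2B gene on the TPM scale. It was at 56.1, 53.5 and 54.2 in the Mettl5 KO libraries, against 117, 114.5 and 120.0 in the WT libraries. Its log2 fold change was -0.99 (SE 0.0439, adjusted limma p 7.12e-08). In mean scaled reads Hist2h2bb was not the highest, at 775 in Mettl5 KO and 1540 in WT cells. Hist1h2bg was at 1054 and 1923. No word of Hist2h2bb is its own, so its split is uncertain. Hist1h2bk was at 38.5, 32.2 and 31.6 in the Mettl5 KO libraries, against 75.7, 81.5 and 79.03 in the WT libraries (log2 fold change -1.12) and Hist1h2bg at 39.7, 35.1 and 37.4 in the Mettl5 KO libraries, against 67.9, 79.99 and 68.6 in the WT libraries (log2 fold change -0.86). In all 3 the Mettl5 KO libraries lay well below the WT libraries. Hist3h2ba, the H2B gene of the chromosome 11 cluster, had the largest fall of the class after Hist1h2ba, with a log2 fold change of -1.38 (SE 0.0888, adjusted limma p 8.72e-07).

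The smallest H2B changes were those of Hist1h2bc, Hist1h2bl and Hist1h2bq. Hist1h2bc was at 12.2, 13.6 and 12.6 in the Mettl5 KO libraries, against 13.7, 17.2 and 15.2 in the WT libraries. The lowest WT library was barely above the highest Mettl5 KO library, the groups overlapped in scaled reads, and the log2 fold change of -0.20 missed the threshold (adjusted limma p 0.0582). It passed with equal totals (-0.35, adjusted p 0.00316). Its only annotated transcript has its 3′ end in a second exon, without the stem-loop. Hist1h2bq, also annotated with several exons and no stem-loop, was at 15.4, 15.2 and 17.2 in the Mettl5 KO libraries, against 20.8, 22.8 and 21.1 in the WT libraries (log2 fold change -0.38, adjusted limma p 0.000324), and 1.74% of its words are its own. Hist1h2bl, annotated as a coding sequence only, was at 33.2, 32.6 and 31.6 in the Mettl5 KO libraries, against 44.2, 47.3 and 43.9 in the WT libraries (log2 fold change -0.36, adjusted limma p 0.000171). The other H2B gene without a call was Hist1h2bm, at 2.897, 2.68 and 1.67 in the Mettl5 KO libraries, against 3.27, 3.36 and 3.77 in the WT libraries (log2 fold change -0.46, adjusted limma p 0.0823). Its groups did not overlap, and it was called lower with equal totals (-0.62, adjusted limma p 0.0275), with centring per chromosome (-0.63, p 0.0157) and without Mettl5 KO replicate 1 (p 0.0421).

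**Figure D2:**
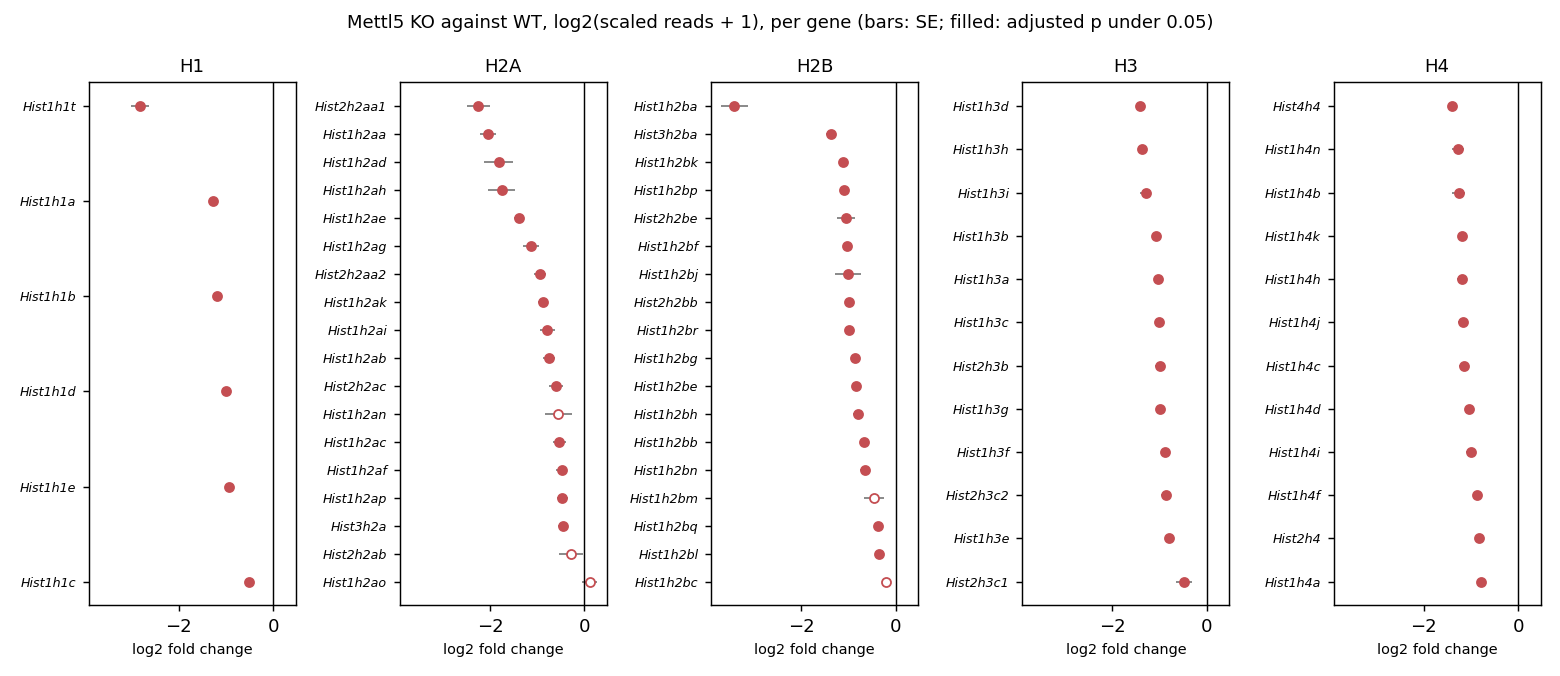
Log2 fold change (x axis, Mettl5 KO against WT, log2(scaled reads + 1)) of the 66 genes, 1 panel per histone class, ordered by size. Bars are SE, filled points passed an adjusted p of 0.05 and open points did not; H4 values span -1.39 to -0.79, and H2A values span -2.24 to 0.11.

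H3 genes were all lower, and their sum was 172, 183 and 174 in the Mettl5 KO libraries, against 363, 444 and 376 in the WT libraries, a Mettl5 KO mean of 44.8% of the WT mean. Hist1h3e was at 31.5, 30.9 and 31.98 in the Mettl5 KO libraries, against 51.5, 63.9 and 56.9 in the WT libraries, with a log2 fold change of -0.79 (SE 0.0687, adjusted limma p 6.7e-06). Hist1h3i was at 22.3, 25.1 and 19.5 in the Mettl5 KO libraries, against 53.5, 70.5 and 53.7 in the WT libraries and changed by -1.30 on the log2 scale (adjusted limma p 9.22e-06). Hist1h3h was at 19.98, 20.6 and 18.9 in the Mettl5 KO libraries, against 52.7, 64.1 and 50.8 in the WT libraries, with a log2 fold change of -1.38 (SE 0.0819, adjusted limma p 4.96e-07). WT replicate 2 stood above the other WT libraries in each of them, and no groups overlapped. Hist1h3g, the H3 gene with its own stem-loop form, had a log2 fold change of -0.995 (adjusted limma p 5.64e-06).

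The largest H3 fall was in Hist1h3d, at 7.07, 6.96 and 7.57 in the Mettl5 KO libraries, against 17.7, 22.2 and 20.1 in the WT libraries (log2 fold change -1.41, 72.4% of words its own). The smallest was in Hist2h3c1, at 0.736, 1.15 and 0.885 in the Mettl5 KO libraries, against 1.25, 1.28 and 1.46 in the WT libraries (log2 fold change -0.49, adjusted limma p 0.0268). This call was lost when either of Mettl5 KO replicates 1 and 3 or either of WT replicates 2 and 3 was left out (adjusted p 0.0518 to 0.0834). The gene has no word of its own, and Gm20634, the gene that shares the most words with it, was at 0.852 in Mettl5 KO and 0.255 in WT cells (means of 3; log2 fold change 1.86). The 4 genes encoding H3.1 (Hist1h3a, Hist1h3g, Hist1h3h and Hist1h3i) summed to 74.7, 82.1 and 72.8 in the Mettl5 KO libraries, against 174.3, 216.0 and 176.6 in the WT libraries. The 8 genes encoding H3.2 summed to 97.6, 100.6 and 101.6 in the Mettl5 KO libraries, against 188.3, 227.7 and 199.6 in the WT libraries. The Mettl5 KO means were 40.5% and 48.7% of the WT means, and the difference between the 2 proteins' genes was not tested. Both sums depend on how reads were split between these 2 sets. Only 5.77% of the words of Hist1h3h and 6.82% of those of Hist1h3i are their own. The H3.2 gene Hist1h3b shares the most words with Hist1h3h.

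H4 genes had the narrowest range of the 5 classes, with all 12 lower and log2 fold changes between -1.39 and -0.79. Their sum was 219.5, 201 and 199 in the Mettl5 KO libraries, against 426, 546.5 and 448 in the WT libraries, a Mettl5 KO mean of 43.6% of the WT mean. Hist1h4k was at 41.8, 41.1 and 44.3 in the Mettl5 KO libraries, against 94.3, 123 and 101 in the WT libraries, with a log2 fold change of -1.19 (SE 0.0905, adjusted limma p 2.73e-06). Hist1h4n was at 29.1, 26.7 and 23.6 in the Mettl5 KO libraries, against 65.4, 86.3 and 57.7 in the WT libraries, with a log2 fold change of -1.28 (SE 0.127, adjusted limma p 1.73e-05). Hist1h4h, with 50% of its words its own, was at 28.3, 25.4 and 27.9 in the Mettl5 KO libraries, against 56.7, 75.7 and 67.6 in the WT libraries, with a log2 fold change of -1.19 (SE 0.097, adjusted limma p 4.5e-06). In all 3 every Mettl5 KO library lay far below every WT library, and WT replicate 2 was the highest. Only 13.8% of the words of Hist1h4k and 12.5% of those of Hist1h4n are their own, so their split is uncertain.

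Hist1h4f had a log2 fold change of -0.86 and Hist1h4a, the least changed H4 gene, one of -0.79 (adjusted limma p 3.44e-05). The H4 genes outside chromosome 13 also fell. Hist4h4, the lone gene on chromosome 6 (chr6:136801553-136804415), was at 1.49, 1.505 and 1.45 in the Mettl5 KO libraries, against 3.81, 4.78 and 3.58 in the WT libraries, with a log2 fold change of -1.39 (SE 0.1, adjusted limma p 1.87e-06). Hist2h4 on chromosome 3 was at 2.91, 2.49 and 2.797 in the Mettl5 KO libraries, against 4.76, 5.19 and 5.203 in the WT libraries (log2 fold change -0.83, adjusted limma p 1.21e-05). Both are well resolved by sequence, with 85.7% and 97.4% of words their own.

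By cluster, the Mettl5 KO sum was 53.6% of the WT sum in Hist1, 47.4% in Hist2, 48.3% in Hist3 and 36.5% in Hist4. Other genes of chromosome 13 had a median log2 fold change of 0.02, with 263 lower and 361 higher of 1062, and those of chromosome 3 one of 0.16. Chromosomes 11 and 6 were lower as a whole, with medians of -0.41 and -0.29 over their other genes. With log2 values centred per chromosome, the log2 fold change of Hist3h2a (chromosome 11) was -0.09 in place of -0.46 and it lost its call (adjusted limma p 0.449), while 60 of the 61 lower members kept theirs.

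Within the Hist1 interval (chr13:21715763-23934851) lie 41 other tested genes, of which 7 were lower and 11 higher, with a median of -0.08. Many of them are genes of the Vmn1r series at levels below 1, such as Vmn1r203 at 0.148 in Mettl5 KO and 0.158 in WT cells. The median therefore describes mostly low genes. Abt1 and Zfp322a, which lie between histone blocks and were named after their values were seen, had log2 fold changes of 0.300 and 0.18, and with equal totals Zfp322a was no longer called (0.02, adjusted limma p 0.724). The 17 members of the first block (chr13:21715763-21837530) had a median of -0.88, and the 29 of the large block (chr13:23531050-23764406) one of -0.995. Hist1h2ah, with a log2 fold change of -1.75, overlaps the annotated miRNA Gm44390, which was at 199.6 ± 16.9 in Mettl5 KO and 122.8 ± 56.7 in WT cells (SD, n = 3), so the split of reads between the 2 is uncertain.

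H2A and H2B genes often share a divergent promoter, and 12 such pairs had starts 176 to 306 bases apart. H2B minus H2A in log2 fold change ran from -1.37 (Hist1h2ba with Hist1h2aa) to 0.78 (Hist1h2bf with Hist1h2ad). In 7 of 12 pairs the H2A gene had the lower log2 fold change and in the other 5 the H2B gene did; the difference within a pair was not tested, and the gap of 0.12 between Hist1h2bj and Hist1h2ag is smaller than the SE of either (0.268 and 0.163).

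Promoter letters are shown because the members moved together and the classes are known to carry different elements. RefSeq windows (GRCm38.p6, 250 bases before to 50 after the start) were matched to 61 members, and both strands were searched for 4 motifs, none of which contains another. CCAAT was present in all 50 matched H1, H2A, H2B and H3 promoters and in 3 of 11 H4 promoters, against 37.9% of all promoters. TATAAA was present in 34 of 61, against 14.2% of all promoters. ATTTGCAT, the octamer bound by POU factors such as OCT1, was found in 7 of 18 H2A and 6 of 16 H2B promoters and in none of the other classes, against 1.75% of all promoters. AAACACA, the H1 box, was found in 5 of 6 H1 promoters, all but that of Hist1h1a, against 7.14% of all promoters. It was also found in 2 of 18 H2A and 2 of 16 H2B promoters, and in no H3 or H4 promoter. A match is a run of letters, not a measured site.
The promoters of Hist1h1b, of Hist2h2bb and of the testis gene Hist1h2ba follow as examples of an H1 gene, an abundant H2B gene and the most changed member, 5′ to 3′ on the gene's strand, with the 4 motifs (either strand) in capitals.
Hist1h1b, chr13:21780576-21780875, minus strand: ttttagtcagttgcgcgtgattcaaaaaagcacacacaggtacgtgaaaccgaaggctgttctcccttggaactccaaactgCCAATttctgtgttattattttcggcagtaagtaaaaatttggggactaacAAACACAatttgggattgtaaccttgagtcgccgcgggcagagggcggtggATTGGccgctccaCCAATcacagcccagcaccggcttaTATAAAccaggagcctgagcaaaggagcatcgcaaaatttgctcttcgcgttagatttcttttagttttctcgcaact
Hist2h2bb, chr3:96269450-96269749, plus strand: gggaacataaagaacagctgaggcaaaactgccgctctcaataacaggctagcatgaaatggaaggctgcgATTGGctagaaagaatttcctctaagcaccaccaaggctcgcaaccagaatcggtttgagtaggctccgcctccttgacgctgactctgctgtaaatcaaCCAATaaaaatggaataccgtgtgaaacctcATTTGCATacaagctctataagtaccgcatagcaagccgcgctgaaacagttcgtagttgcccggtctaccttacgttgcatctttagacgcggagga
Hist1h2ba, chr13:23934107-23934406, minus strand: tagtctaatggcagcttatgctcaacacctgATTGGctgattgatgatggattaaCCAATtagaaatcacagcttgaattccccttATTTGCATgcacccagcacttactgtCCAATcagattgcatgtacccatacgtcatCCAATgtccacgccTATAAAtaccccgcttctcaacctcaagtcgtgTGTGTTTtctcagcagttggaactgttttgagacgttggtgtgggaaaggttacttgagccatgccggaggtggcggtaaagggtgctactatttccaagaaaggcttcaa
The octamer stands in both H2B promoters and the AAACACA letters in that of Hist1h1b, with the reverse complement of the same letters near the start of Hist1h2ba. The 13 members with an octamer had a median log2 fold change of -0.86, and the 21 H2A and H2B genes without one had -0.84. Their sums differed more, with Mettl5 KO means of 45.6% of the WT mean with an octamer and 61.5% without. Hist1h2ap alone made up 39.8% of the WT sum of the genes without one, and the difference was not tested.

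The annotated 3′ end separated the medians of the members little. The median log2 fold change was -0.99 in the 21 members with no annotated stem-loop, -1.02 in the 22 whose transcripts end within 100 bases of it and -0.88 in the 23 that run further. With an AATAAA near the end it was -1.02 in 14 members, and without one -0.995 in 52. The 5 members with 2 or more exons had a median of -0.84. These are descriptions, with no test, and the deposited values do not tell reads before the stem-loop from reads after it.

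Sequence uniqueness separated the medians little as well, and the sums more. The 26 members with at least 50% of words their own had a median of -1.04, with 25 lower, and the 23 members under 25% had -0.98, with 21 lower. The Mettl5 KO sum was 46.1% of the WT sum in the first set and 55.5% in the second. In scaled reads the ratios were 0.509 and 0.604, and the difference was not tested. The 3 members nearest to no change were Hist1h2ao, Hist1h2bc and Hist2h2ab, with 6.22%, 66.6% and 33.6% of words their own.

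**Figure D3:**
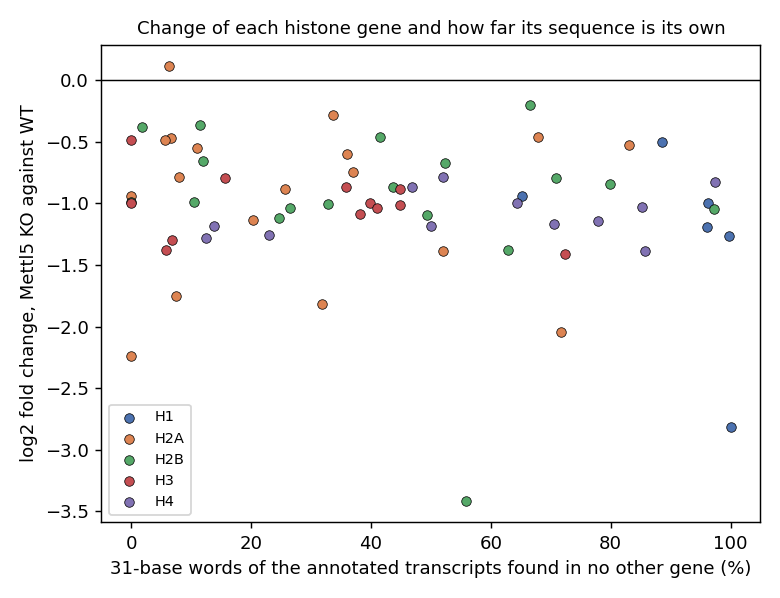
Log2 fold change of each of the 66 genes (y axis, Mettl5 KO against WT) against the share of 31-base words of its annotated transcripts that occur in no other gene (x axis, percent), coloured by class. Falls of about 1 on the log2 scale appear across the whole x axis, and the H1 genes lie at 65.3% or more.

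Many other RNAs without a polyA tail were lower in the same libraries. Of all tested genes, 28.9% were lower and 33.6% higher. Small nucleolar, small Cajal body-specific and small nuclear RNAs with Rmrp, Rpph1, Rn7sk, Malat1 and Neat1 made up 290 tested gene IDs (Rmrp has 2), out of 2947 annotated ones, of which 126 were lower and 12 higher (median log2 fold change -0.56), or 149 lower and 7 higher with equal totals. Of the 290, 33 had values identical to another gene, and 2 were at 0 in all Mettl5 KO libraries and none in all WT libraries; the sources used here do not say how the table was restricted. Their summed level was 18070 to 18480 in Mettl5 KO libraries and 28600 to 29420 in WT libraries. Not all of them fell: Malat1, a nuclear RNA with a genome-encoded A-rich end, rose by 0.62 on the log2 scale. Rn7sk, the RNA that holds the elongation factor P-TEFb inactive, had a log2 fold change of 0.11 in scaled reads, but of -0.044 with equal totals. Rpph1, the RNA of ribonuclease P, had a log2 fold change of -0.59, and Neat1, which also has a polyadenylated isoform, one of -0.45. How far carry-over of tail-less RNA differed between the library groups, and its part in the histone result, was not tested.

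Replication-independent histone variants, whose mRNAs are polyadenylated and made outside S phase too, went both ways. Of 11, 7 were lower and 2 higher (median -0.21), against 28.9% lower and 33.6% higher among all tested genes. H1fx (chromosome 6) and H1f0, both linker histone variants, were at 9.29 ± 0.496 in Mettl5 KO and 31.2 ± 1.304 in WT cells (SD, n = 3) and at 31.4 ± 0.064 in Mettl5 KO and 57.2 ± 1.11 in WT cells (SD, n = 3), with log2 fold changes of -1.69 and -0.81. H3f3a, one of the genes for H3.3, rose by 0.53. H2afx, the H2A of DNA damage signalling, carries the stem-loop letters after its stop codon too and is known to give both tailed and tail-less mRNA. It was at 117, 116 and 115 in the Mettl5 KO libraries, against 119, 132 and 119 in the WT libraries, and its log2 fold change of -0.03 did not pass the threshold (adjusted limma p 0.579), while with equal totals it was lower (-0.18, adjusted limma p 0.00245).

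Genes that act with the histone genes were chosen as lists by role. The counts of each list stand against 28.9% lower and 33.6% higher among all tested genes. For S phase and DNA replication, 17 of 30 were lower and 11 higher, with a median of -0.10, and 4 were higher with equal totals. Chromosome 8, which carries several genes of these lists, had a median log2 fold change of -0.38 over its genes. The replicative helicase genes Mcm5 and Mcm2 had log2 fold changes of -0.60 and -0.46 (chromosomes 8 and 6), the thymidine kinase gene Tk1 one of -0.58 (chromosome 11), and the clamp loader gene Rfc3 one of 0.55. Rrm2, the S phase subunit of ribonucleotide reductase, rose by 0.37 and Ccna2, cyclin A2, by 0.31. Pcna, the replication clamp, was at 466 ± 10.7 in Mettl5 KO and 449.6 ± 14.01 in WT cells (SD, n = 3) and had a log2 fold change of 0.12, or -0.035 with equal totals. None of the 30 had a log2 fold change of -1 or less, against 30 of the 66 histone genes.

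Among 8 genes that switch histone genes on, 5 were higher and 1 lower (median 0.16), or 3 higher and 1 lower with equal totals. Npat, the cyclin E-CDK2 target that activates histone genes, was at 14.5 ± 0.198 in Mettl5 KO and 12.6 ± 0.0202 in WT cells (SD, n = 3) (log2 fold change 0.25, adjusted limma p 4.1e-05). Ccne2, a cyclin E gene, rose by 0.51 and the zinc finger factor Yy1 by 0.53, while Coil, which encodes the Cajal body scaffold coilin, had a log2 fold change of -1.03 (chromosome 11). Of 15 histone chaperone and import genes 9 were higher and 5 lower (median 0.15), or 6 higher and 6 lower with equal totals. Asf1b, the H3-H4 chaperone of proliferating cells, was at 35.1 ± 0.196 in Mettl5 KO and 76.6 ± 1.77 in WT cells (SD, n = 3) (log2 fold change -1.06; chromosome 8). Its paralog Asf1a rose by 0.37, and Rbbp7 and Rbbp4, which bind H4, rose by 0.61 and 0.35. Nasp, the H1 and H3-H4 chaperone, had a log2 fold change of -0.14.

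The 19 genes of histone 3′ end formation and decay had 9 lower and 7 higher (median -0.11), or 12 lower and 4 higher with equal totals. Slbp was at 94.4, 96.9 and 94.2 in the Mettl5 KO libraries, against 95.7, 104 and 98.8 in the WT libraries. Its libraries overlapped, and its log2 fold change was 0.00 (adjusted limma p 0.994), but -0.16 with equal totals and -0.21 with centring per chromosome, both past the threshold. Lsm11, a protein of the U7 particle, had a log2 fold change of -0.51 (chromosome 11), and Casp8ap2, the U7 partner FLASH, one of -0.28. Cpsf2, of the cleavage complex, rose by 0.32. Of genes that act in histone mRNA decay, Eri1, the 3′ exonuclease that binds the stem-loop, had a log2 fold change of -0.55 and Upf1 one of -0.52, and Ddx19b, an export and translation factor, one of -0.93 (all 3 on chromosome 8).

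Cleavage and polyadenylation genes had 8 of 16 higher and 4 lower (median 0.09). With equal totals 3 were higher and 8 lower. Nudt21, the CFIm25 subunit that steers the choice of polyadenylation site, was at 95.5 ± 2.65 in Mettl5 KO and 166 ± 5.84 in WT cells (SD, n = 3) (log2 fold change -0.73; chromosome 8). The polyA polymerase gene Papolg (chromosome 11) and Cstf3 had log2 fold changes of -0.68 and -0.36. Cstf2t rose by 0.38. Against these lists by role and the histone variants, with medians between -0.21 and 0.16, the histone cluster genes had a median of -0.995. The other RNAs without a polyA tail lay between, with a median of -0.56. Of those 290, 80 were lower with a log2 fold change of -1 or less, against 9.93% of all tested genes.

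**Figure D4:**
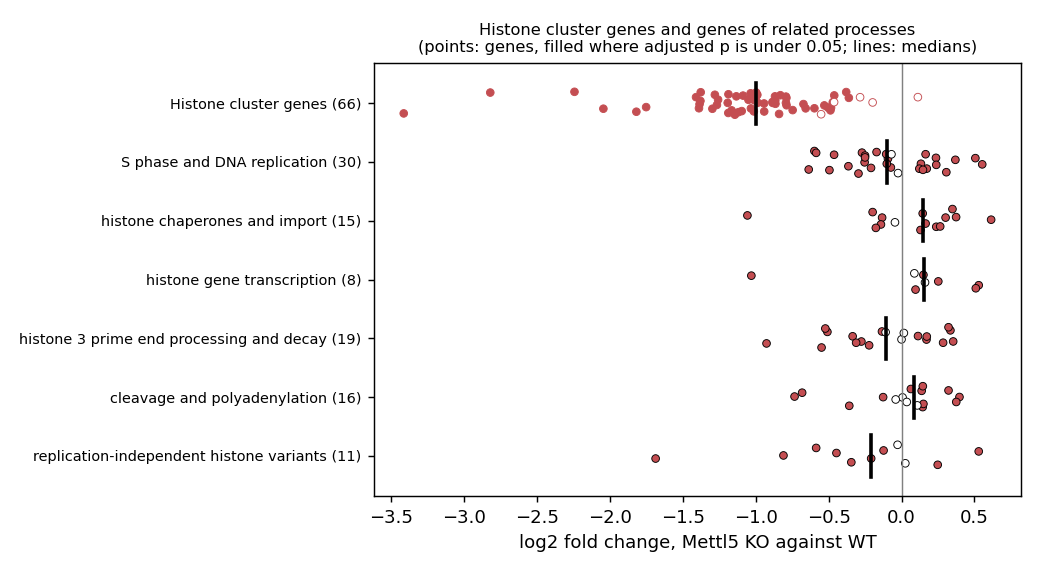
Log2 fold change (x axis, Mettl5 KO against WT) of the 66 histone cluster genes and of the genes of 6 lists by role (rows, with the number of genes). Points are genes, filled where the adjusted p was under 0.05, and black lines are medians; the histone genes centre near -1 and the 6 lists lie around 0. The other RNAs without a polyA tail (median -0.56) are not drawn.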

How the data were processed

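PolyA RNA of 3 Mettl5 KO and 3 WT libraries was used, grouped by the sample titles. The submitters' processing notes name kallisto, sleuth and mm10, with no version in the sources used here, and neither the transcript set nor the handling of strand. The deposited signal columns, per the file headers, are scaled_reads_per_base, called scaled reads here, and tpm. The authors' scaled reads signal was not whole. Among values of 0.5 to 40, a library's best step matched 29.7% to 32.8% (tolerance 0.02 steps), against a median of 3.29% to 3.51% for other steps, and depth was estimated as the library's total divided by that step. The TPM column summed to 969838 to 1022473, so it was rescaled too.

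Since neither column holds counts, log2(scaled reads + 1) was fitted in limma 3.58.1 under R 4.3.3 with an intensity trend, for the 24183 genes that averaged 1 scaled read or more; a count test was therefore not run. Each of the 66 members passed this filter, none was listed at 0, and the lowest single value was 2.01 scaled reads. The fit was tested on simulated data. The members and gene lists were chosen with earlier results of these data known. Named genes were, per class, the 4 of highest level and the 2 largest and 2 smallest changes, members not called, Mettl5, Slbp and up to 4 genes of smallest p per list; others were named after their values were seen. Symbols, coordinates and transcripts came from GENCODE M21 (GRCm38), promoters from RefSeq (GRCm38.p6). Tables and plots used Python 3.11.15, pandas 2.3.3, numpy 2.4.6 and matplotlib 3.10.9. Alternatives were other scalings, the TPM column, other filters and pseudocounts, weights by voom, a test against 1.5-fold, a replicate block, centring per chromosome and leaving out each library.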

Additional observations from a re-analysis of the deposited data

How the results depend on the processing

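Members lower in Mettl5 KO cells numbered 60 to 63 under every alternative but the test against a 1.5-fold change, which called 43 lower, against 9.01% of all tested genes. Members called higher were 0, and 0 to 1 when a library was left out (1 without WT replicate 2). All-gene calls were 6998 lower and 8137 higher, and 2178 and 2869 in the 1.5-fold test. With equal totals the split became 9147 lower and 6309 higher, so the share of higher calls was 40.8%, against 53.8%. Genes of the 7 lists other than markers were called lower in 169 and higher in 54 cases; the 1.5-fold test gave 73 and 0, and higher calls were 29 with equal totals and 24 with centring per chromosome. Slbp changed sign to -0.16 with equal totals and -0.21 with centring per chromosome; these scalings lower most log2 fold changes. Pcna likewise went to -0.035 and -0.024 under these scalings, and Rn7sk to -0.044 with equal totals and -0.008 on the TPM column. From scaled reads in place of TPM, the Mettl5 KO to WT ratio of class sums was 0.493 for H1, 0.65 for H2A and 0.581 for H2B. The TPM ratios were 0.438, 0.603 and 0.525. TPM is per length, so its sums give short genes more weight. The part of this weighting in the difference was not tested. With the replicate number as a block, 62 members were lower; Hist1h2bc then passed (adjusted p 0.00888). Same-numbered libraries correlated at 0.11, 0.08 and 0.13 in their deviations, each best with its own number, which is a hint from the data and not from the design. No member carries values identical to another gene, so leaving such members out changes no class sum. Depth limits the lowest members: Hist1h2ba in Mettl5 KO libraries rests on few reads.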
